A study of Mus musculus with 16 samples.

Results

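Pancreatic duct genes were followed in RNA sequencing of mouse pancreatic islets, as a set of 9 genes that are widely used to mark the duct epithelium. They were taken by symbol as Krt8, Krt18, Krt7, Krt19, Epcam, Muc1, Spp1, Cftr and Sox9, and all 9 were found among the 16815 genes that both deposited expression tables share. The rule was the symbol alone. The duct epithelium lines the tubes that carry digestive enzymes out of the pancreas and adds fluid and bicarbonate to the juice through the chloride channel Cftr. Its cells hold a keratin skeleton of type I and type II partners that pair with each other, are joined by adhesion proteins such as Epcam, carry the mucin Muc1 on the side facing the lumen, and keep the transcription factor Sox9, which islet and acinar cells of the adult largely lose. Keratins 8 and 18, Epcam and Muc1 are also made by other epithelial cells of the pancreas, so that a level in whole islets does not belong to duct cells alone.

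The series holds 16 islet libraries, 4 in each of 4 groups, which were made to ask what B7-H4, an immune checkpoint protein encoded by Vtcn1, does in β cells. Flox mice are C57BL/6J mice with loxP sites around exon 2 of both Vtcn1 alleles (B7-H4 fl/fl), and cKO mice have the same floxed alleles plus a Rip-Cre transgene, in which the rat insulin II promoter drives Cre recombinase in β cells. Both were on normal chow, with no age given for the mice that were sequenced. The groups labelled H-ins2-C and H-ins2-O, called Ctrl and OE here, came from mice that started a high-fat diet at 6 weeks of age, received a virus after 8 weeks on it and gave islets 5 weeks later. In OE mice an adeno-associated virus carried B7-H4 and ZSGreen under the insulin promoter, Ctrl mice were given a control virus, and both were infused through the pancreatic duct. The methods call these mice Flox and the series description calls them WT, so all 4 groups share the floxed alleles if the methods are right. Flox mice carry no Cre, and an effect of the Cre transgene and of the deletion cannot be told apart. Islets were freed with collagenase pumped through the common bile duct and picked by hand. Nothing says whether a library is 1 mouse or a pool, and p-values measure only the spread between these libraries.

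Acinar RNA made up a very uneven share of the libraries. A list of 18 acinar enzyme and regulator genes took 33.5% to 42.3% of all FPKM (fragments scaled to gene length and library size) in the cKO libraries, 6.89% to 33.0% in the Flox libraries, 10.2% to 13.3% in the OE libraries and 1.99% to 69.7% in the Ctrl libraries, with 53.1% in Ctrl2 and 69.7% in Ctrl3. All 17 acinar genes in the tables were above 0 in every library. The β-cell list took 4.38% of FPKM in Ctrl3 and 19.1% in Ctrl2, against 25.8% to 55.1% in the other 14. The targeted gene Vtcn1 lay between 0.0188 and 0.216 FPKM in the 8 chow libraries, too low to check the deletion. It was at 0.0636 to 0.371 FPKM in Ctrl and rose to 40.0 to 128 FPKM in OE, with a log2 fold change of 6.53 (limma adjusted p = 5.48e-08). Read totals are not given. Steps in the lowest values put the relative depths between 0.840 and 1.08 of the median of a table.

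The upstream sequences of a few members are shown because their RNA patterns across libraries were near each other or far apart, or because their levels ranged widely. They are the 250 bases before the first base of the gene in RefSeq on build GRCm38.p6, which matches the mm10 build of the submitters' notes, 5′ to 3′ on the strand of the gene. RefSeq held such a sequence for 7 of the 9 genes, and Krt19 and Sox9 had none in the table used. Capitals mark matches, on either strand, to the TATA box TATAAA, the GC box GGGCGG, the SOX site ACAAAG, the HNF1 half-site GTTAAT and the STAT site TTCNNNGAA. Krt8 and Krt18 both varied little and, with each gene centred on its own mean within a table, had the nearest patterns across libraries. They are neighbours on chromosome 15 with 23874 bases between their starts and are read in opposite directions. Muc1 and Krt7 were the pair whose centred patterns lay farthest apart, and Cftr had the widest fold range within the Flox group.
Krt8 (chr15:102004343-102004592, minus strand): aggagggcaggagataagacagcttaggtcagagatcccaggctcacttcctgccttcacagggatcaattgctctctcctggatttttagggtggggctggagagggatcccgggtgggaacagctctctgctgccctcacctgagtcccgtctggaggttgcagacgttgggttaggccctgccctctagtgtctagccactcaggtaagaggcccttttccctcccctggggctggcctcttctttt
Krt18 (chr15:102027966-102028215, plus strand): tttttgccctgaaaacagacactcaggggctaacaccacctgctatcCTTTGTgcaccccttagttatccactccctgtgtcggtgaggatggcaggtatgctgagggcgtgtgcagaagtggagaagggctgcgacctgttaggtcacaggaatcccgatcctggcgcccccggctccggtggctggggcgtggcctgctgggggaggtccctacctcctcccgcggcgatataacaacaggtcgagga
Krt7 (chr15:101412153-101412402, plus strand): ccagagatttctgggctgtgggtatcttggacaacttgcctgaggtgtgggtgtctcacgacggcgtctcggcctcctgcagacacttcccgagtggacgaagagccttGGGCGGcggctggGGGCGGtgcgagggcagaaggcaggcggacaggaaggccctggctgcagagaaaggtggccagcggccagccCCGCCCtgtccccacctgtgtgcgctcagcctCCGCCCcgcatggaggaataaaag
Muc1 (chr3:89228806-89229055, plus strand): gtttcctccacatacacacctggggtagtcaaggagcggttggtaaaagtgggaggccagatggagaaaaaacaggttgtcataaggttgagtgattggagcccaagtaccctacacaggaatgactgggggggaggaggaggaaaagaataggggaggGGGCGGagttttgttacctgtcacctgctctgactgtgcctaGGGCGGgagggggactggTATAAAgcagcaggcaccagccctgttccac
Cftr (chr6:18170437-18170686, plus strand): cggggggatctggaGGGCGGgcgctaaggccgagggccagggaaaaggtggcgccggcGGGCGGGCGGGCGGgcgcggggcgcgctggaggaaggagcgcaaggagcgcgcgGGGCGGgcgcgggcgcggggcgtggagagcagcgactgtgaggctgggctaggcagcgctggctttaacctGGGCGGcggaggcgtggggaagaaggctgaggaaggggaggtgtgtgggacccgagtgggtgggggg
Muc1 was the only one of these 5 with TATAAA, at -31 to -26 from the start, which 12.37% of 32851 RefSeq promoters held in the same window. GC boxes numbered 6 in Cftr, where 3 of them overlap each other, 4 in Krt7, 2 in Muc1 and 0 in Krt8 and Krt18, and 32.74% of all promoters held at least 1. Krt18 held a single SOX site at -203 to -198, a match found in 16.46% of promoters. None of the 5 held the STAT site, found in 7.02%, or the HNF1 half-site, found in 6.432%. E-boxes, CANNTG, are in 66.22% of promoters and were left in lower case. These matches describe letters and say nothing of binding.

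The 9 genes fell into clearly different levels, which can be set beside each other because FPKM is scaled to gene length. Krt18, Krt7, Krt8 and Epcam were at 10.9 to 164 FPKM, Spp1 at 22.4 to 97.4, Muc1 at 3.48 to 44.9 and Krt19 at 0.667 to 10.7 FPKM, while Cftr and Sox9 were at or under 2.01 FPKM in all 16 libraries. In cKO libraries the order of the group means was Krt18, Krt8, Krt7, Epcam, Spp1, Muc1, Krt19, Cftr and Sox9. In Flox, Ctrl and OE libraries Krt7 stood first. Neighbours in the order often overlapped, as Krt8, Krt7 and Epcam did in cKO, and Krt7, Krt18, Epcam and Krt8 did in Flox. In OE libraries no neighbours in the order overlapped, and in Ctrl libraries only Sox9 and Cftr, at the bottom, did not. The genes most restricted to duct cells in the adult pancreas, Sox9, Cftr and Krt19, were thus the lowest, and most of the summed level came from the broadly epithelial members. The 9 together summed to between 297 and 440 FPKM, or 0.0346% to 0.0637% of all FPKM of a library.

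**Figure D1:**
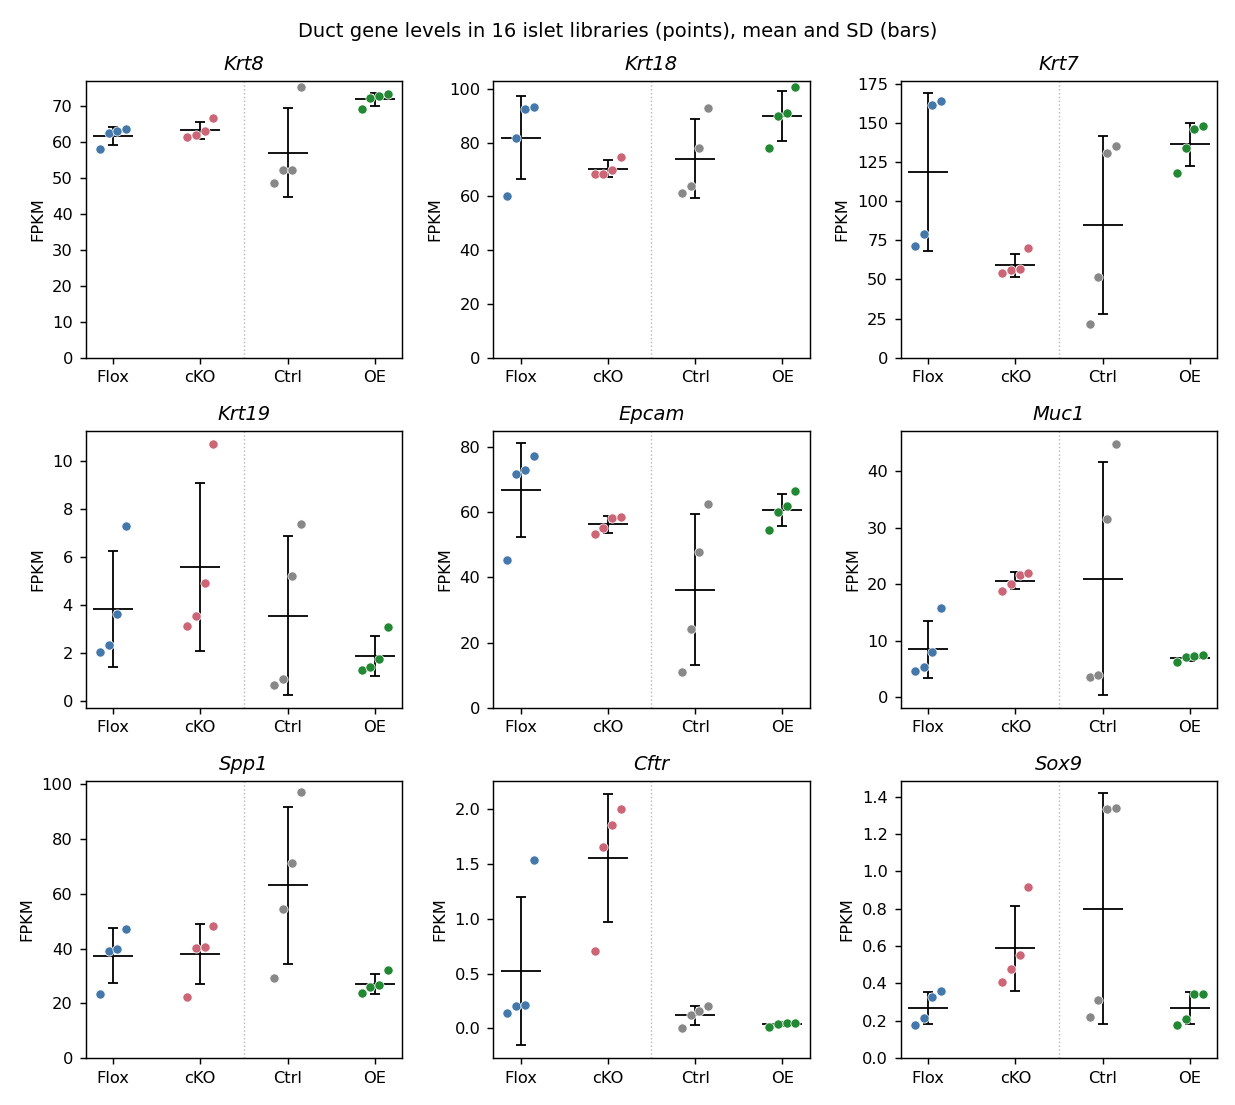
FPKM of each of the 9 duct genes (vertical axes, linear, 1 scale per gene) in the 4 libraries of each group (points), with the group mean and SD as bars. The 4 cKO points of Muc1 lie above all Flox points and those of Krt7 below, while the Ctrl points of Krt7, Epcam, Muc1, Spp1 and Sox9 split into separated pairs or spread over the widest range.

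Krt8, the type II keratin of simple epithelia, had nearly the same level in all chow libraries. It was at 66.7, 62.1, 63.2 and 61.4 FPKM in cKO8, cKO9, cKO12 and cKO38, and at 62.5, 58.2, 63.7 and 63.1 FPKM in Flox16, Flox17, Flox20 and Flox21. The groups overlapped, with a log2 fold change of 0.03 (SE 0.14, limma adjusted p = 0.856) and a 95% interval from -0.26 to 0.33. Here and throughout, fold changes are on the scale of log2(FPKM + 0.5), p-values are adjusted over all genes tested, and a gene passed the test at an adjusted p under 0.05. On the high-fat diet it was at 48.6, 52.2, 52.2 and 75.5 FPKM in Ctrl1, Ctrl2, Ctrl3 and Ctrl5 and at 72.3, 73.6, 72.8 and 69.3 FPKM in OE1 to OE4. Ctrl5 alone among the controls reached above every OE library, and the log2 fold change of 0.35 (SE 0.41, adjusted p = 0.657) did not pass the test.

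Krt18, the type I partner that forms filaments with keratin 8, stayed within a 1.68-fold range over the 16 libraries. The cKO libraries held 68.4, 69.8, 68.5 and 74.8 FPKM, and the Flox libraries 93.2, 60.1, 92.6 and 81.6 FPKM in the order given above. Flox17 was the lowest of the 8 and the other 3 Flox libraries were the highest, with a log2 fold change of -0.20 (SE 0.16, adjusted p = 0.32). Without Flox17 the log2 fold change was -0.34 with an adjusted p of 0.00832, in a fit where 60% of all genes tested had an adjusted p under 0.05. Leaving out the only Flox library below the cKO libraries by itself makes the groups separate, so this p adds no support. Ctrl libraries held 93.1, 61.4, 64.0 and 77.9 FPKM and OE libraries 77.9, 90.9, 89.8 and 101 FPKM, which overlapped at a log2 fold change of 0.29 (SE 0.40, adjusted p = 0.703).

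Krt7, a type II keratin of ducts and other simple epithelia, was the most abundant member in 3 groups and had the lowest levels in the libraries richest in acinar RNA. It was at 69.8, 53.8, 56.6 and 56.1 FPKM in cKO8, cKO9, cKO12 and cKO38 and at 71.3, 79.1, 164 and 161 FPKM in Flox16, Flox17, Flox20 and Flox21. The groups did not overlap, but the gap between cKO8 and Flox16 was small, and the Flox libraries themselves split into a lower and a higher pair. The log2 fold change was -0.91 (SE 0.28, adjusted p = 0.0534), just outside the threshold. It passed at -1.11 (adjusted p = 0.000872) without Flox16, at -1.07 (adjusted p = 0.0199) without Flox17, at -1.15 (adjusted p = 0.0216) with 3 libraries per group and at an adjusted p of 0.0487 without variance trend and robust fitting. In these fits, in the same order, 24.2%, 60%, 66.1% and 9.69% of all genes tested had an adjusted p under 0.05. Flox20 and Flox21, the higher pair, had acinar shares of 9.85% and 6.89%. Their β-cell list shares of 51.9% and 54.7% were the highest of the chow libraries. With the acinar level (log2 of the summed FPKM of the acinar list) as a covariate the log2 fold change was -0.15 and the adjusted p 0.872. In that fit 0 of 11804 genes had an adjusted p under 0.05. In the high-fat table Krt7 was at 135, 51.8, 21.2 and 131 FPKM in the Ctrl libraries and at 118, 148, 134 and 146 FPKM in the OE libraries. Ctrl2 and Ctrl3 were the low ones, and their β-cell list shares of 19.1% and 4.38% were the lowest of the high-fat libraries. The other Ctrl libraries lay within the OE range for Krt7. Which cells gave the Krt7 level was not tested. The log2 fold change of 1.02 (SE 0.52, adjusted p = 0.591) did not pass the test.

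Krt19, a type I keratin and a standard marker of duct cells, varied 16.1-fold between the lowest and the highest library. It was highest in cKO8 at 10.7 FPKM, against 4.95, 3.13 and 3.55 FPKM in cKO9, cKO12 and cKO38, and stood at 3.62, 7.31, 2.06 and 2.35 FPKM in the Flox libraries. The groups overlapped, with a log2 fold change of 0.49 (SE 0.48, adjusted p = 0.432). In Ctrl it was at 0.933, 5.24, 7.40 and 0.667 FPKM, so that both extremes of the high-fat table were controls, and in OE at 3.10, 1.30, 1.74 and 1.42 FPKM. The log2 fold change of -0.36 (SE 0.54, adjusted p = 0.719) turned to 0.11 without Ctrl3. Flox17 and OE1, which held the highest Krt19 of their groups, also held most markers of intestinal epithelium. In Flox17 only 1 of 15 such genes was at 0 and in OE1 0 of 14, against 1 in OE3, 5 in OE4 and 9 to 11 in the other libraries. Among the others were cKO8 and Ctrl3, with the highest Krt19 of their groups and 10 of 15 and 11 of 14 such genes at 0. The list summed to 75.2 FPKM in Flox17 and 53.9 FPKM in OE1, against 5.20 to 47.3 FPKM elsewhere. Vil1 alone gave 25.4 and 39.2 FPKM of these sums and was at 3.36 FPKM or more in every library. The part of the list in Krt19 was not tested.

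Ratios between keratins do not depend on how a library was scaled. Krt8 to Krt18 lay between 0.522 and 0.975 in all 16 libraries, and its log2 ratio differed by 0.23 between cKO and Flox (exact permutation test, two-sided, p = 0.143, adjusted p = 0.429 over 6 tests, n = 4 and 4). Krt7 to Krt19 spanned a far wider range, from 2.87 in Ctrl3 to 196 in Ctrl5. In cKO libraries it was 6.50 to 18.1 and in Flox libraries 10.8 to 79.6, a log2 difference of -1.46 that the exact test left at p = 0.143 (adjusted p = 0.429). Krt19 to Krt18 was 0.0457 to 0.157 in cKO and 0.0222 to 0.122 in Flox, with an exact p of 0.314 (adjusted p = 0.629). Between OE and Ctrl the exact p-values were 0.886 for Krt8 to Krt18, 0.6 for Krt19 to Krt18 and 0.429 for Krt7 to Krt19. With 4 against 4 libraries this test cannot go below 0.0286, and the groups overlapped in every ratio. Without Flox17 the exact p between cKO and Flox was 0.0286 for Krt8 to Krt18 and for Krt7 to Krt19, unadjusted and the smallest that 4 against 3 libraries can give. The removal fixes this outcome for both ratios, because Flox17 alone among the Flox libraries lay within the cKO range.

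**Figure D2:**
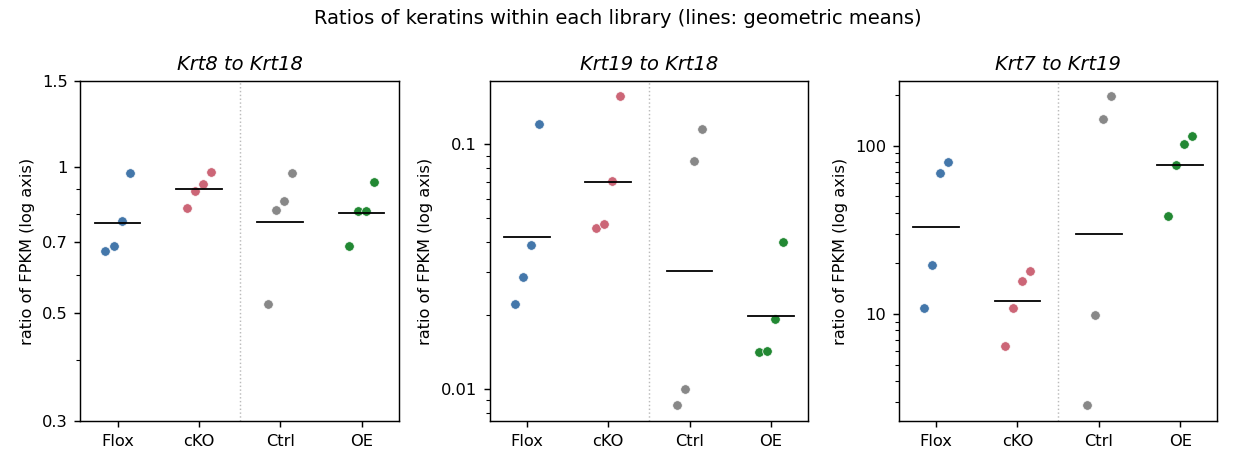
Ratio of FPKM between keratins within each library (vertical axes, log scale) by group, with points for libraries and a line at the geometric mean. Krt8 to Krt18 stays between 0.522 and 0.975, while Krt7 to Krt19 runs from 2.87 to 196, and both of these last values are Ctrl libraries.

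Epcam, a cell adhesion molecule found on epithelial cells throughout the pancreas, showed the same low controls as Krt7. In the chow libraries it was at 58.1, 53.2, 58.7 and 55.1 FPKM in cKO and at 77.2, 45.3, 71.8 and 73.0 FPKM in Flox. Flox17 was again below every cKO library and the others were above, and the log2 fold change of -0.22 (SE 0.17, adjusted p = 0.307) did not pass the test. Without Flox17, where 60% of all genes passed, it was -0.39, with an adjusted p of 0.00403. As for Krt18, leaving out Flox17 by itself makes the groups separate, so this p adds no support. In Ctrl Epcam was at 47.7, 24.1, 10.9 and 62.5 FPKM and in OE at 66.4, 61.9, 60.2 and 54.5 FPKM. Ctrl3 and Ctrl2 were the lowest, Ctrl5 lay inside the OE range, and the log2 fold change was 1.01 (SE 0.51, adjusted p = 0.591).

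Muc1, a transmembrane mucin of the luminal surface of ducts and acini, was the only member that changed by the test in either comparison. It was at 18.8, 21.7, 21.9 and 20.1 FPKM in cKO8, cKO9, cKO12 and cKO38 and at 7.93, 15.7, 5.41 and 4.65 FPKM in Flox16, Flox17, Flox20 and Flox21. Every cKO library lay above every Flox library, and Muc1 rose with a log2 fold change of 1.39 (SE 0.30, adjusted p = 0.0229, 95% interval 0.74 to 2.05), or 2.63-fold on the scale of FPKM + 0.5. The acinar share ordered the libraries in nearly the same way, from 6.89% in Flox21, which had the lowest Muc1, to 33.0% in Flox17, which had the highest Muc1 of its group, and 33.5% to 42.3% in the cKO libraries. With the acinar level as a covariate the log2 fold change was 0.55 and the adjusted p 0.641, and with each library divided by its median ratio to the other libraries (median-of-ratios scaling) they were 1.75 and 0.0718. Of all genes tested, 0% and 2.38% had an adjusted p under 0.05 in these fits. Every cKO library had a higher acinar share than every Flox library, so genotype and acinar RNA cannot be told apart in the covariate fit. The adjusted p of Muc1 was 0.0802 without cKO9, 0.0745 without cKO38, 0.0625 without Flox20 and 0.0838 with every gene above 0 FPKM tested. Few genes passed in these settings, with 0.161%, 0.751%, 1.16% and 0% of all genes tested.

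On the high-fat diet Muc1 followed nearly the same order of acinar shares. It was at 3.96, 31.6, 44.9 and 3.48 FPKM in Ctrl1, Ctrl2, Ctrl3 and Ctrl5, and at 7.43, 6.13, 7.22 and 7.01 FPKM in OE1 to OE4. The OE libraries were tight and lay between the pairs of controls, and the log2 fold change was -0.77 (SE 0.66, adjusted p = 0.606).

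Spp1 encodes osteopontin, a secreted phosphoprotein that duct cells and macrophages make. It was at 48.2, 40.7, 22.4 and 40.2 FPKM in cKO and at 23.2, 39.2, 40.0 and 47.3 FPKM in Flox, with 1 low library in each group. The log2 fold change was 0.01 (SE 0.25, adjusted p = 0.975). In Ctrl it was at 29.1, 71.2, 97.4 and 54.5 FPKM and in OE at 23.7, 32.3, 26.5 and 25.9 FPKM. Of the controls only Ctrl1 fell within the OE range, and the log2 fold change of -1.08 (SE 0.46) had an unadjusted p of 0.0275 and an adjusted p of 0.591. A list of 9 macrophage genes took 0.0201%, 0.00729%, 0.00414% and 0.0635% of FPKM in Ctrl1, Ctrl2, Ctrl3 and Ctrl5 and 0.0100% to 0.0130% in OE. Ctrl3, with the highest Spp1, had the lowest macrophage share of the controls, and Ctrl5 the highest. The part of this list in the Spp1 levels was not tested.

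Cftr, the apical chloride and bicarbonate channel of duct cells, was low and divided the chow libraries unevenly. It was at 0.708, 1.66, 2.01 and 1.86 FPKM in cKO8, cKO9, cKO12 and cKO38 and at 1.54, 0.138, 0.205 and 0.214 FPKM in Flox16, Flox17, Flox20 and Flox21. Flox16 lay within the cKO range and the remaining 3 Flox libraries far under it. The log2 fold change was 1.14 (SE 0.41, adjusted p = 0.0791) and, without Flox16, 1.53 (adjusted p = 3.80e-06), where 24.2% of all genes passed. Leaving out Flox16, the only Flox library in the cKO range, by itself makes the groups separate, so this p adds no support. Slc26a3, a chloride and bicarbonate exchanger of the apical membrane, was at 0.589 to 1.12 FPKM in cKO, at 0.749 and 0.560 FPKM in Flox16 and Flox17, and at 0.00917 and 0.00958 FPKM in Flox20 and Flox21, so that Flox17 parted the genes. In the high-fat table Cftr was at 0.161, 0.122, 0.203 and 0 FPKM in Ctrl and at 0.0455, 0.0508, 0.0430 and 0.0137 FPKM in OE, under the mean of 0.5 FPKM required for a test. These values were whole multiples of 1 step, read as 1 fragment, from 0 in Ctrl5 and 3 in OE4 to 39 in Ctrl3. For OE4 the exact two-sided 95% Poisson interval was 0.00283 to 0.0401 FPKM. For 0 in Ctrl5 the one-sided 95% limit of about 3 fragments was taken instead. Both cover counting error only.

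Sox9, the transcription factor that marks duct and progenitor cells, had the lowest mean of the 9 in both chow groups. It was at 0.917, 0.553, 0.476 and 0.405 FPKM in cKO and at 0.215, 0.357, 0.174 and 0.325 FPKM in Flox. The groups did not overlap, but the mean was under the 0.5 FPKM required for a test and no p is given for the log2 fold change of 0.49. In Ctrl it was at 0.311, 1.33, 1.34 and 0.219 FPKM and in OE at 0.207, 0.176, 0.340 and 0.341 FPKM, with Ctrl2 and Ctrl3 again apart from the rest. Its log2 fold change of -0.64 (SE 0.36, adjusted p = 0.591) did not pass the test. In bulk islets, fewer duct cells and less of these RNAs per cell cannot be told apart.

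In all, the cKO against Flox comparison gave 1 of 8 tested members past an adjusted p of 0.05 with an absolute log2 fold change over 1, namely Muc1, against 1.31% of the 11804 genes tested, 0.339% higher and 0.974% lower in cKO. At an adjusted p under 0.05 alone the share of all genes was 13.8%, split into 1.02% higher and 12.8% lower in cKO. Groups that did not overlap occurred in 2 of the 8, Muc1 higher and Krt7 lower, against 16.8% of all genes, 1.32% higher and 15.4% lower. Sox9, which was not tested and is outside this count, was also higher in cKO without overlap. The log2 fold changes had a median of -0.34 over all genes and of 0.02 over the 8 members. Relative to the median of all genes, Muc1 lay at 1.73, Cftr at 1.48 and Krt7 at -0.56. Among the genes called, 25.8% were higher in cKO, which became 72.2% with median-of-ratios scaling.

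In the OE against Ctrl comparison 0 of 8 tested members passed an adjusted p of 0.05 in limma, against 0.033% of 12132 genes, 4 genes that also had an absolute log2 fold change over 1 and were all higher in OE. At an unadjusted p under 0.05 there was 1 of the 8, Spp1, against 6.41% of all genes. No member's groups were without overlap, against 6.58% of all genes. The log2 fold changes of the members ran from -1.08 to 1.02 with a median of -0.03, beside 0.44 for all genes tested. Standard errors were 0.36 to 0.66 here and 0.14 to 0.48 in the chow comparison, and for each of the 9 members the Ctrl libraries spread more widely than the OE libraries. With the acinar level as a covariate 4 of the 8 had an adjusted p under 0.05, against 15.6% of all genes, with log2 fold changes of 0.88 for Krt7, 0.88 for Epcam, -0.55 for Sox9 and -1.02 for Spp1 and adjusted p-values of 0.0399, 0.0366, 0.0416 and 0.0379.

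**Figure D3:**
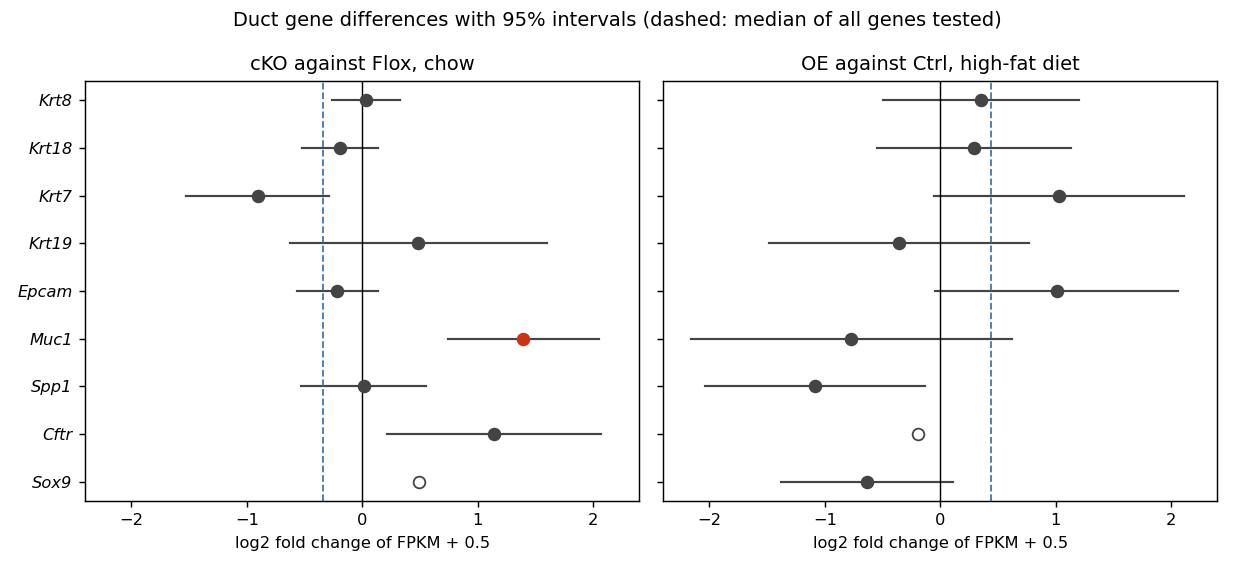
Log2 fold change of FPKM + 0.5 (horizontal axes) of the 9 duct genes in both comparisons, with 95% intervals from limma as lines, an open circle for a gene under the level required for a test and red for an adjusted p under 0.05. Only Muc1 in cKO against Flox is red, and the dashed lines mark the medians of all genes tested, -0.34 and 0.44.

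The members did not form 1 block across libraries. When each gene was centred on its mean within a table, Muc1, Krt19, Sox9 and Spp1 were high in Ctrl2 and Ctrl3 while Krt7 and Epcam were low there. The root-mean-square difference of the centred log2 levels over the 16 libraries was smallest between Krt8 and Krt18, at 0.23, followed by 0.39 between Krt7 and Epcam and 0.42 between Sox9 and Spp1. It was largest between Krt7 and Muc1, at 1.78, then between Muc1 and Epcam, at 1.59. Krt8 and Krt18 each varied little about their own means, with root-mean-square spreads of 0.180 and 0.225. Their small difference therefore does not show that they moved together. Krt7 and Muc1 ran against each other in the chow table as well, where Flox20 and Flox21 had the highest Krt7 and the lowest Muc1.

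**Figure D4:**
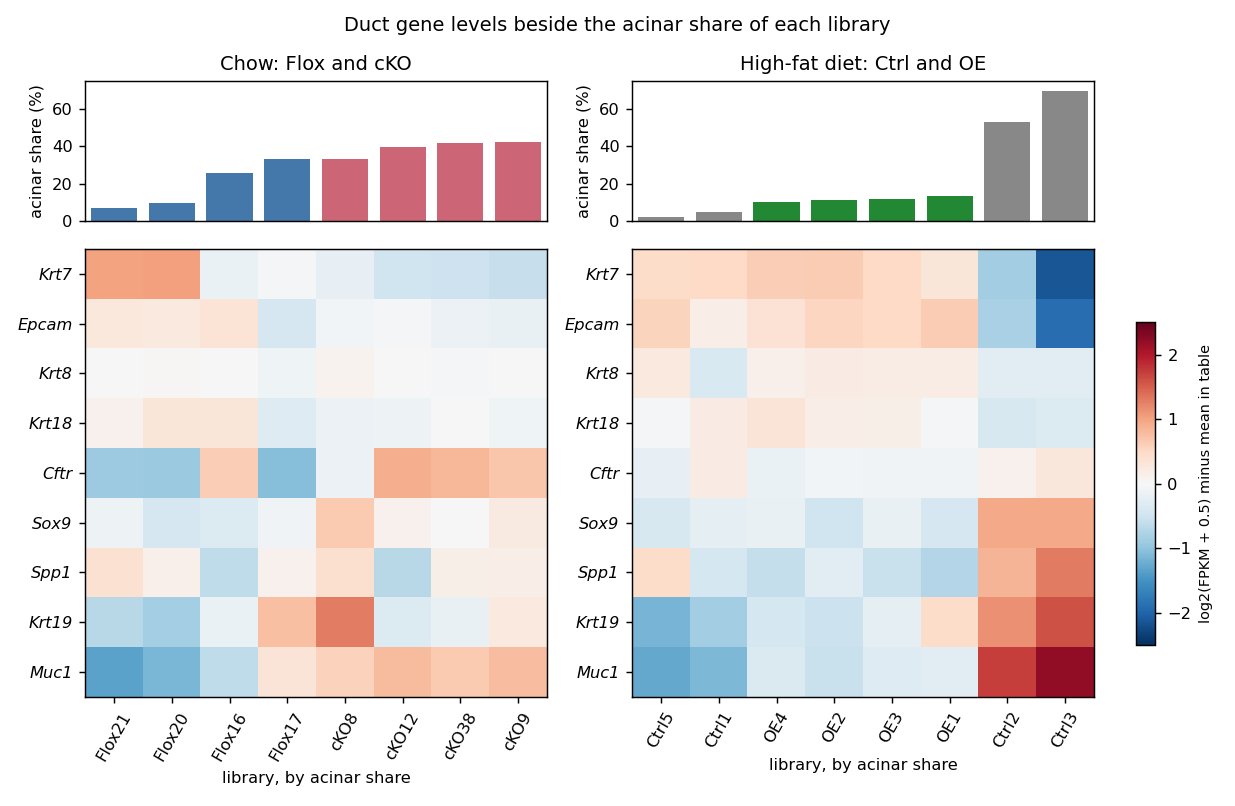
Top, acinar share of summed FPKM (percent) of each library, coloured by group; bottom, log2(FPKM + 0.5) of each duct gene minus its mean in the table (colour scale), with libraries ordered by acinar share. Muc1 turns from blue to red and Krt7 from red to blue as the acinar share goes from 6.89% to 42.3% on chow and from 1.99% to 69.7% on the high-fat diet.

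Genes outside the set were ranked by the same difference among 10388 genes whose mean reached 1 FPKM in each table, for the 3 members with the largest spread. Nearest to Muc1 were Tmed6 (0.17), Gamt (0.17), Tmem97 (0.19), Gjb1 (0.19) and Prss8 (0.21). Tmed6, a protein of the secretory pathway, was at 270.9 FPKM in Ctrl3 and 23.9 FPKM in Ctrl5, and Gamt, which makes creatine, at 109 and 8.71 FPKM. Nearest to Krt7 were Trak1 (0.12), Rab27a (0.12), Macroh2a1 (0.13) and Dio1 (0.13). Rab27a, a small GTPase of granule docking that β cells use for insulin release, was at 8.12 FPKM in Ctrl3 and 44.2 FPKM in Ctrl5. Nearest to Krt19 were Gcat (0.41), Pbld1 (0.42), Nphs1 (0.43), Padi2 (0.43) and Anxa13 (0.44), at a clearly larger distance, so that no gene matched Krt19 as closely.

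Of 40 other duct genes listed beside the set, 30 were tested in cKO against Flox and 4 passed an adjusted p of 0.05, with 1 higher and 3 lower. That is 13.3% of them, close to the 13.8% of all genes, of which 12.8% were lower. Their median log2 fold change was -0.21, against -0.34 for all genes. Aqp1, a water channel of duct and endothelial cells, fell in cKO from 1.49, 2.87, 5.54 and 7.55 FPKM in Flox to 0.862, 0.541, 0.645 and 0.831 FPKM, with a log2 fold change of -1.81 (adjusted p = 0.0305) and no overlap. Prom1, a protein of membrane protrusions at the apical side, fell by 1.21 on the log2 scale (adjusted p = 0.0315), from a mean of 14.0 to 5.42 FPKM, with cKO8 at 6.88 FPKM just above Flox16 at 6.62 FPKM. Cdh1, the adhesion protein E-cadherin, fell by 0.59 (adjusted p = 0.04), and the secreted chaperone Clu rose by 0.50 (adjusted p = 0.0432). The 6 endothelial markers gave 5 lower at an adjusted p under 0.05, against 12.8% of all genes, and their part in the fall of Aqp1 was not tested.

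By role, the duct transcription factors gave 0 of 5 tested, fluid and bicarbonate genes 1 of 4, cilium and polarity genes 1 of 5, junction genes 1 of 5, secreted and surface genes 1 of 9, and other keratins 0 of 2, beside the 13.8% of all genes. Among those that did not pass, the trefoil peptide Tff2 had a log2 fold change of 1.63 (adjusted p = 0.1) with no overlap of the groups, and Krt23 had 1.05 (adjusted p = 0.0523). The microtubule-binding Dcdc2a had -1.39 (adjusted p = 0.0735), also with no overlap, and Slc26a3 had 0.83 (adjusted p = 0.0586). Tff2 was at 997 to 1254 FPKM in cKO and at 547, 936, 199 and 152 FPKM in Flox, in the order of the acinar shares of the Flox libraries.

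In OE against Ctrl 29 of the 40 were tested and 0 passed an adjusted p of 0.05, with a median log2 fold change of 0.08 against 0.44 for all genes. The largest positive values were 1.54 for the tetraspanin Tspan8 and 1.29 for the tight-junction claudin Cldn4, followed by Cdh1 with means of 75.2 FPKM in OE and 41.3 FPKM in Ctrl. The largest negative values were -1.11 for the copper-binding ferroxidase Cp, -1.10 for the lipocalin Lcn2 and -1.02 for the carbonic anhydrase Car2. Each of these 6 had an adjusted p of 0.591. Of these 6, the groups did not overlap for Cldn4, Cdh1, Cp and Car2, and of all 29 they did not for 4 higher and 3 lower in OE, beside the 6.58% of all genes. Car2 was at 1.11, 0.640, 0.877 and 0.898 FPKM in Ctrl and at 0.25, 0.0748, 0.125 and 0.281 FPKM in OE, and here all 4 controls were above every OE library.

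**Figure D5:**
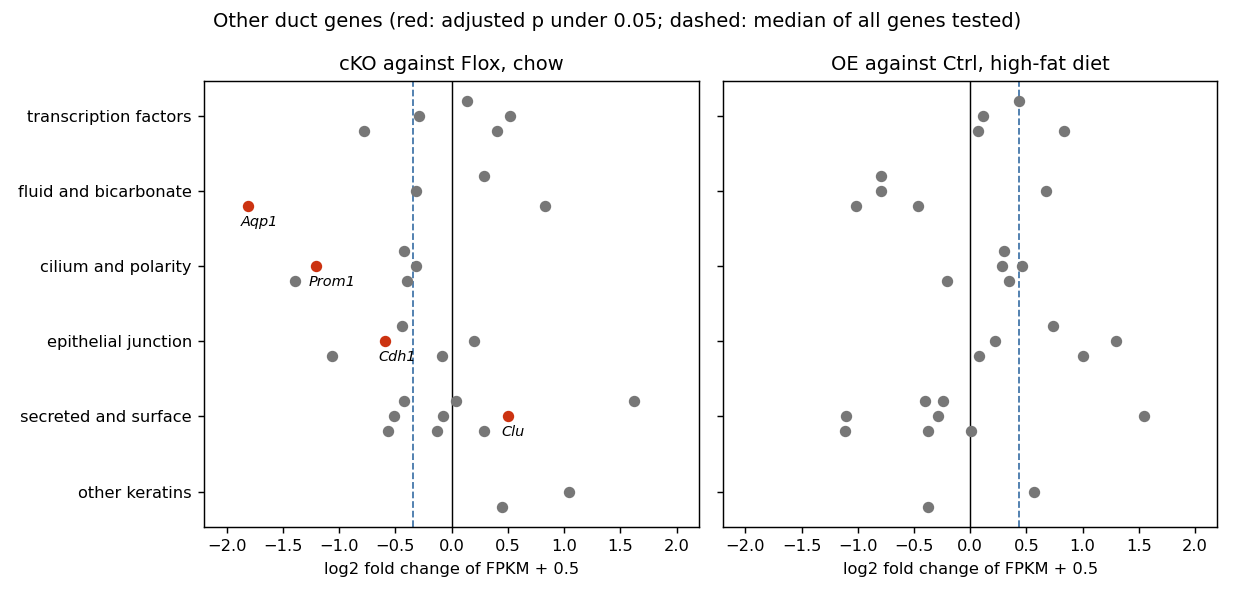
Log2 fold change of FPKM + 0.5 (horizontal axes) of the tested genes among 40 other duct genes, grouped by role, in both comparisons, with red for an adjusted p under 0.05. Aqp1, Prom1 and Cdh1 lie left and Clu right of 0 in cKO against Flox, and no point is red in OE against Ctrl.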

How the data were processed

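RNA of 16 islet libraries was sequenced on an Illumina NovaSeq instrument. The authors deposited 1 table of FPKM (fragments scaled to gene length and to the mapped reads of the library) for the cKO and Flox libraries and 1 for the Ctrl and OE libraries, and the submitters' notes name the build mm10. The aligner and the counting tool are not given in the sources used here, nor is how reads shared with copies such as the pseudogene Krt8-ps were assigned. Each table was tested separately with R 4.3.3 and limma 3.58.1, on log2(FPKM + 0.5) of genes whose mean reached 0.5 FPKM. Variances were moderated by robust empirical Bayes with a trend, and p-values were two-sided with Benjamini-Hochberg adjustment over all genes tested. This scale understates fold changes of low genes. A gene passed the test at an adjusted p under 0.05, and a call in the counts over all genes and in the simulation needed in addition a log2 fold change beyond 1 in either direction. Chow and high-fat tables were not tested against each other. Keratin ratios were compared by exact permutation with scipy 1.17.1. Calling was tested on simulated data with 200 genes changed by 2 on the log2 scale, of which 195 were called in cKO against Flox (11804 genes, 7 false calls) and 79 in OE against Ctrl (12132 genes, 5 false calls). The simulated noise was independent between genes. It therefore does not cover shifts that many genes share, such as differences in acinar RNA between libraries. No 2 libraries of a group were duplicates, with 0 to 12 identical values per pair.

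The 9 genes, the lists of 40 other duct genes and of cell type markers, and the tests were chosen with earlier results of these data known. Other duct genes are named if their adjusted p was under 0.05 or if they were among the 3 largest changes in either direction, marker genes stand as list sums, and likeness genes are the 5 nearest to a member, of which 1 is not reported here. Alternatives covered the pseudocount, the filter, the scaling, the variance model, the replicate number as a block, the log2 of the summed FPKM of the acinar list as a covariate, the 3 libraries per group that the study's heatmaps show, and each library left out.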

Additional observations from a re-analysis of the deposited data

Results flagged for a closer look

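Each of the 9 genes and of the 3 keratin ratios was checked in each of the 4 groups for a single library far from the other 3, which made 48 checks, and chance alone flags about 5% of such checks. Krt8 in Ctrl5 stood at 75.5 FPKM, apart from the other 3 Ctrl libraries at 48.6 to 52.2 FPKM and above all OE libraries. Cftr in Flox16 stood at 1.54 FPKM against 0.138 to 0.214 FPKM in the other Flox libraries and lay within the cKO range. Epcam in Flox17 stood at 45.3 FPKM against 71.8 to 77.2 FPKM in the other Flox libraries. Flox17 also had the lowest Krt18 of the 16 libraries, at 60.1 FPKM, and the highest Krt19 and Muc1 of its group.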

How the results depend on the processing

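Of the single values recomputed under the alternatives, 336 kept their direction and their side of the threshold, 20 newly passed it, 6 no longer passed and 19 turned direction. Counts are given first for the 9 duct genes, at an adjusted p under 0.05, and then for all genes, at an adjusted p under 0.05 with an absolute log2 fold change over 1. In cKO against Flox they were 1 and 155. They became 0 and 0 with every gene above 0 FPKM tested, 0 and 36 with median-of-ratios scaling, 3 and 272 without variance trend and robust fitting, 0 and 0 with the acinar covariate, 5 and 699 with 3 libraries per group, and from 0 to 4 and from 18 to 507 with 1 library left out. A pseudocount of 1 gave 84 genes and of 0.1 gave 307. In OE against Ctrl the counts of 0 and 4 became 4 and 444 with the acinar covariate and 1 and 649 without Ctrl2 and Ctrl3, an alternative chosen after seeing the data, 10 genes were called with every gene tested, and 4 to 5 with 1 library left out. At an adjusted p under 0.05 alone, 13.8% of all genes passed in cKO against Flox, 2.38% with median-of-ratios scaling, 9.69% without variance trend and robust fitting, 66.1% with 3 libraries per group, 24.2% without Flox16 and 60% without Flox17. In OE against Ctrl it was 0.033%, 15.6% with the acinar covariate and 24.3% without Ctrl2 and Ctrl3. The cause of these differences was not tested.

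Directions turned for values near 0 or for genes that follow the control libraries. In cKO against Flox, median-of-ratios scaling turned the log2 fold change of Krt18 to 0.19 and of Epcam to 0.16, the acinar covariate turned Krt19 to -0.19 and Epcam to 0.053, and 3 libraries per group turned Krt8 to -0.02 and Spp1 to -0.084. Spp1 ran from -0.20 to 0.24 with 1 library left out. In OE against Ctrl, scaling turned Krt8 to -0.20 and Krt18 to -0.26, and without Ctrl2 and Ctrl3, the controls with the highest Krt19 and Muc1, these were 0.83 and 0.82, a direction that the removal fixes for both. With 1 library left out Krt19 ran from -0.81 to 0.11, the log2 ratio of Krt8 to Krt18 from -0.12 to 0.17 and that of Krt19 to Krt18 from -1.22 to 0.031, and 3 libraries per group gave -0.048 for Krt8 to Krt18.

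With the replicate number as a block, 3 of the 8 tested duct genes and 23.2% of all genes had an adjusted p under 0.05 in cKO against Flox. Of these, 2 duct genes and 268 of all genes also had an absolute log2 fold change over 1. The added members were Krt7 (log2 fold change -0.91, adjusted p = 8.86e-06) and Cftr (adjusted p = 0.00179). Libraries of the same number showed no clear shared deviation, with correlations of -0.215 to 0.122 and of -0.132 to 0.102 in the chow and high-fat tables. With 4 libraries per group these correlations cannot exclude a pairing by number. Cftr and Sox9, the members with the lowest values, came to 27 to 391 and 24 to 115 steps of 1 fragment in the chow table and to 0 to 39 and 25 to 186 in the high-fat table, which limits the precision of the lowest. In simulation with noise independent between genes, 79 of 200 genes changed by 2 on the log2 scale were called in OE against Ctrl. This limits what an absent call there says.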
